A study of Mus musculus with 2 samples.

Results

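Tubulins build the microtubules of the cell, and kinesins and dyneins are the motors that move along them. The genes described here were those whose current symbol begins with Dync or Dynl, or with Tuba, Tubb, Tubg, Tubd, Tube, Kif, Klc, Dnah, Dnai or Dnaaf followed by a digit. Probes with a value on both arrays were averaged per gene, which gave 73 genes of 13506 in all. They comprised 13 tubulins, 33 kinesins, 3 kinesin light chains, 12 chains of cytoplasmic dynein, 9 heavy chains of axonemal dynein and 3 assembly factors of axonemal dynein. The symbol of 19 of them was updated from an older name, for example Dyx1c1 to Dnaaf4 and Dnahc8 to Dnah8. The platform named 84 such genes, and the other 11 had a value on 1 array only (6 genes) or on neither (5 genes).

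The study compared liver metastases with primary tumours of Colon26 cells, a mouse colon carcinoma line. The cells were grown in culture and injected under the lining of the rectum of Balb/c mice, and the metastases arose in the liver from these tumours. RNA of a liver metastasis was labelled with Cy3 and RNA of a primary tumour with Cy5, and each of 2 arrays carried 1 such pair, grown and harvested independently. No age, sex, genotype or treatment of the mice is given in the labels.

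The deposited values are log ratios of the 2 channels and were taken as log2. Neither the log base nor the numerator of the ratio is stated in the labels or the table. Values are therefore reported by sign, positive or negative, and neither sign is assigned to the metastases or the primary tumours. Over the 13506 genes Pearson's r between the arrays was 0.61 (a correlation across genes, which are not independent replicates), so both ran the same way round. Both had the same dye orientation, so a bias of a probe towards 1 dye enters its value on both arrays alike and leaves no trace in their spread. The table holds no intensity, so no level of a gene in either tissue could be given, and the tissues could not be checked against the levels of their defining markers. In such bulk RNA, fewer cells of a type and less RNA per cell cannot be told apart. All errors are the SD of the 2 arrays (n = 2).

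Microtubules are hollow polymers of alpha and beta tubulin, and several genes encode each of them. Gamma tubulin seeds new microtubules at the centrosome, and delta and epsilon tubulin belong to centrioles. Most kinesins carry cargo or chromosomes towards the growing end of a microtubule, and some take microtubules apart. Cytoplasmic dynein moves the other way, and axonemal dyneins drive the beat of cilia and sperm tails after cytoplasmic factors have assembled them. A dividing tumour cell uses tubulin and the mitotic kinesins for its spindle, whereas axonemal dyneins are best known from airway cilia and sperm.

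Each gene's ratio was tested against 0 with limma, with Benjamini-Hochberg adjustment over all 13506 genes and a threshold of 0.05. Of the 73 genes, 5 passed, 3 on the positive side (Dnaaf4, Dnah17 and Kif7) and 2 on the negative side (Dnah8 and Tubb3). That is 6.85% of them, and over all genes tested 2.90% passed, with 2.12% on the positive and 0.777% on the negative side. Scaling the arrays to equal spread left 2 positive calls and 1 negative call among the members. Quantile normalization left 0 on either side, and over all genes it left 1 positive and 3 negative calls, against 286 and 105 without it. Values beyond 1 log2 unit on each array, with the same sign, were found for 4 of the 73 and for 2.27% of all genes. Of these 4, Dnaaf4, Dnah17 and Kif7 were positive (1.69% of all genes) and Dnah8 was negative (0.578% of all genes). The median over the 73 genes was -0.08, with -0.01 on array 1 and -0.18 on array 2, and over all genes it was -0.02. Both arrays were positive for 27 of the 73 and negative for 35, and 11 had mixed signs. Over all genes 33.9% were positive on both, 38.2% negative on both and 27.8% mixed. The 29 members with an unadjusted p under 0.05 stand beside 27.5% of all genes that met the same limit. The unadjusted counts given below for families and lists are to be read beside this share.

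**Figure D1:**
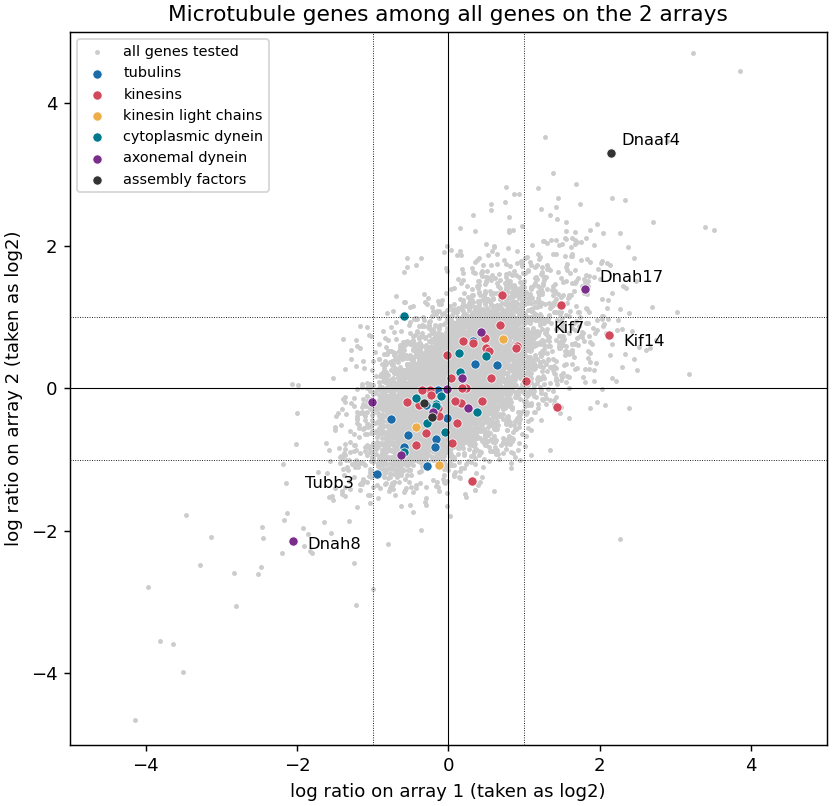
Log ratio of each gene on array 1 (horizontal) and array 2 (vertical), both taken as log2, with all 13506 genes in grey and the 73 tubulin, kinesin and dynein genes coloured by family. Dotted lines mark 1 log2 unit. Dnaaf4, Dnah17 and Kif7 lie beyond it on the positive side of both arrays and Dnah8 on the negative side, while most other members lie inside it.

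The widest ratio belonged to Dnaaf4, a cytoplasmic factor needed to assemble the dynein arms of motile cilia. It had 2.15 on array 1 and 3.31 on array 2, a mean of 2.73 ± 0.82 with a 95% limma interval from 1.97 to 3.50 and a limma adjusted p of 0.0330. If the base is 2, the mean ratio was 6.64-fold. By distance of the mean from 0 it ranked 13 among all 13506 genes. The other assembly factors measured on both arrays lay on the other side and close to 0. Dnaaf1 had -0.32 and -0.20 on arrays 1 and 2, and Dnaaf5 had -0.21 and -0.40, with limma adjusted p of 0.317 and 0.264. Dnaaf6b had 0.83 on array 1 and no value on array 2, and Dnaaf3 and Dnaaf6 had no value on either.

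Among the axonemal dynein heavy chains, the force-producing subunits, Dnah8 and Dnah17 passed in opposite directions. Dnah8, an outer arm chain known from the sperm tail, had -2.05 on array 1 and -2.15 on array 2. Its mean of -2.10 ± 0.07 (limma interval -2.49 to -1.71, limma adjusted p 0.0274) is 4.28-fold if the base is 2, and the arrays differed by little for a ratio of this size. Dnah17, another outer arm chain of the sperm tail, had 1.81 on array 1 and 1.39 on array 2, a mean of 1.60 ± 0.30 (limma interval 1.15 to 2.05, limma adjusted p 0.0330). The rest did not pass. Dnah10, an inner arm chain, was negative on both arrays at -0.63 and -0.94, and Dnah6 was positive on both at 0.43 and 0.79, with limma adjusted p of 0.0763 and 0.113. Dnah11 differed between the arrays, with -1.01 on array 1 and -0.20 on array 2. Dnah5, an outer arm chain of airway cilia, had -0.26 ± 0.09, Dnah12 0.16 ± 0.02, Dnah1 -0.01 ± 0.38 and Dnah7a -0.01 ± 0.005. The sign of the mean of Dnah1, Dnah7a and the kinesin gene Kif13a turned when the arrays were centred on their medians. Dnah9 had 1.89 on array 2 and no value on array 1, and Dnah2 and Dnah14 had none. Of the 9 heavy chains, 3 were positive and 5 negative on both arrays, so the genes of these large motors showed no common side.

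**Figure D2:**
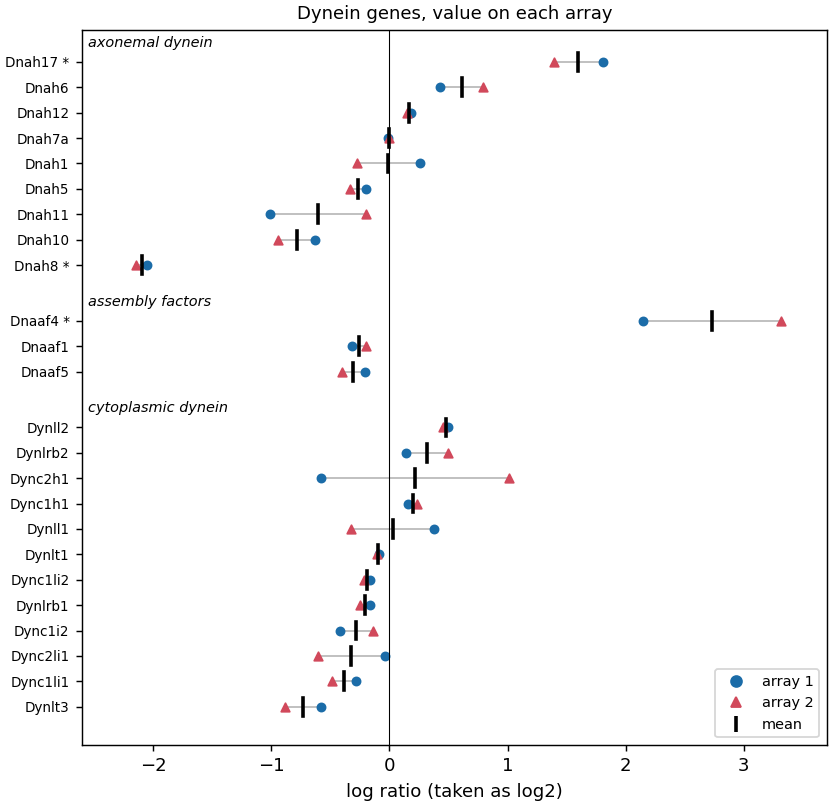
Log ratio, taken as log2, of each dynein gene on array 1 (circles) and array 2 (triangles), with the mean as a bar and an asterisk for genes past the limma threshold. Dnaaf4 and Dnah17 stand apart on the positive side and Dnah8 on the negative side, while the chains of cytoplasmic dynein have means between -0.73 and 0.48.

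Other genes of motile cilia were described from lists of known components. Of 8 measured markers of multiciliated epithelium, 3 were positive and 2 negative on both arrays, with a median of 0.10. Cfap45, a protein inside the ciliary microtubules, passed at 1.45 ± 0.40 (limma adjusted p 0.0438). Foxj1, the transcription factor that switches on the motile cilium genes, had 0.11 on array 1 and 0.83 on array 2 and did not pass. Tekt2 had 1.02 and 0.53 on arrays 1 and 2, Rsph4a, a radial spoke head protein, -0.06 and -0.57, and the ruler proteins Ccdc39 and Ccdc40 had means of -0.02 each. Of 27 further genes, of the axoneme and of factors that assemble or regulate it, 13 had positive and 7 negative values on both arrays. Ruvbl1, Ruvbl2, Pih1d1, Rfx1 and Rfx2, which are such factors, were among the negative ones. So were the radial spoke genes Rsph3a at -0.29 ± 0.23 and Rsph6a at -0.27 ± 0.29. Drc3, of the nexin-dynein regulatory complex, passed at 1.31 ± 0.14 (limma adjusted p 0.0371), while Pih1d2 had 1.05 ± 0.33, Cfap52 0.95 ± 0.20 and Gas8 0.55 ± 0.04. Of 6 measured testis germ cell markers 0 passed in limma (2 had an unadjusted p under 0.05), and their median was -0.12. The levels of all these markers are unknown here, and their part in the ratios of Dnaaf4, Dnah17 and Dnah8 was not tested.

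Intraflagellar transport, the train that carries material along a cilium, is driven outwards by kinesin-2 and back by dynein-2. A list of 29 measured genes covered the train, the BBSome, which is its cargo adaptor, and a few proteins that work with them. Of these, 17 were positive and 7 negative on both arrays, with a median of 0.14. Arl3, Bbs10 and Bbs12, which are not subunits of the train or the BBSome, were among the negative ones. So were the BBSome subunits Bbs1 at -0.40 ± 0.04 and Bbs9 at -0.45 ± 0.22. The train subunits Ift172 at -0.21 ± 0.13 and Traf3ip1 at -0.31 ± 0.08 were negative on both arrays too. Ttc26, a train subunit, passed at 1.31 ± 0.45 (limma adjusted p 0.0492), just inside the threshold. Cluap1, also of the train, had 0.84 ± 0.08, Ift74 0.51 ± 0.13, Arl3, a small GTPase of cilia, -0.80 ± 0.10 and Bbs12 -0.60 ± 0.27. The chains of kinesin-2 themselves lay on both sides. Kif3a had 0.54 and 0.52 on arrays 1 and 2, Kif3b, its partner, -0.55 and -0.19, and Kif3c -0.13 and -0.27. Kifap3, the subunit that links them to cargo, had 0.19 and 0.70. Neither Kif3a nor Kif3b passed in limma. The dynein-2 heavy chain Dync2h1 had -0.58 on array 1 and 1.02 on array 2, which leaves its side undetermined, and Dync2li1 had -0.04 and -0.61.

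Kif7, a kinesin at the tip of the primary cilium that regulates Hedgehog signalling, was the called kinesin. It is read by 2 probes, which had 1.74 and 1.24 on array 1 and 1.15 and 1.18 on array 2. Their average gave 1.33 ± 0.23 (limma interval 0.90 to 1.75, limma adjusted p 0.0398), so separate probes and separate arrays all lay above 1. Its call lay near the threshold and was kept in 3 of 8 alternatives, with a limma adjusted p of 0.0501 for the better of the 2 probes when probes were fitted singly. In 1 of these 3, the probe nearest to 0 on its weaker array was used. For Kif7 that is the probe with the higher mean, 1.45, so this setting was not a stricter one.

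Kinesins of cell division leaned to the positive side without a call. The 11 genes counted here, a grouping by known function made with their values in view, are Kif4, Kif11, Kif14, Kif15, Kif18a, Kif18b, Kif20a, Kif20b, Kif22, Kif23 and Kif2c. Both arrays were positive for 7 of them and negative for 3 (63.6% and 27.3%), beside 33.9% and 38.2% of all genes. The median was 0.23. In limma 0 of the 11 passed (4 had an unadjusted p under 0.05). Kif14, which acts in cytokinesis, had 2.12 on array 1 and 0.74 on array 2, a mean of 1.43 ± 0.97 with a limma adjusted p of 0.0904. Kif15, which helps to hold the spindle poles apart, had 0.71 and 1.31, a mean of 1.01 ± 0.42 with a limma adjusted p of 0.0687. Kif23, a component of the midzone of the spindle, had 0.68 and 0.90, a mean of 0.79 ± 0.15 with a limma adjusted p of 0.0692.

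Other spindle motors lay nearer to 0. Kif11, the main motor that pushes the spindle poles apart, had -0.23 and -0.09 on arrays 1 and 2. Kif4, which binds chromosome arms, had -0.35 and -0.02, Kif22 0.03 and 0.15, and Kif20a, a motor of the central spindle, 0.23 and 0.005. Kif20b, which acts late in division, had 0.19 and 0.66, Kif18a, which limits the swing of chromosomes, -0.01 and 0.48, and Kif18b -0.24 and -0.02. Racgap1, the partner of Kif23, had 0.05 and 0.15. The markers of proliferating cells lay on both sides. Of 17 measured, 10 were negative and 5 positive on both arrays, with a median of -0.19, and 0 passed in limma (3 had an unadjusted p under 0.05). Cenpe, a kinesin of the kinetochore whose symbol lies outside the rule, was the farthest of them from 0 at 0.87 and 1.45 (limma adjusted p 0.0554). Bub1b, a checkpoint protein, had -0.55 ± 0.15, Plk1, a mitotic kinase, -0.49 ± 0.25, Birc5, survivin, -0.38 ± 0.04 and Top2a, a topoisomerase, -0.33 ± 0.03. The part of proliferating cells in the ratios of the mitotic kinesins was not tested.

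Promoters of these kinesins share a sequence that the choice of genes did not use. The cell cycle genes homology region (CHR), TTTGAA on either strand, is a known element of genes expressed in mitosis. RefSeq promoters of GRCm38.p6, from 250 bases before to 50 after the start of a gene, were at hand for 60 of the 73 members and for 10 of the 11 mitotic kinesins. The letters were present in 9 of these 10, in 2 of 23 promoters of the other kinesins and in 17.9% of all 32851 promoters of this length. The letters are found in Kif14, Kif15 and Kif23, which lay farthest on the positive side, and also in Kif11, which lay near 0. The place of the match differs between these 4 promoters. Capitals mark the match.
Kif14, chr1:136467598-136467897, plus strand: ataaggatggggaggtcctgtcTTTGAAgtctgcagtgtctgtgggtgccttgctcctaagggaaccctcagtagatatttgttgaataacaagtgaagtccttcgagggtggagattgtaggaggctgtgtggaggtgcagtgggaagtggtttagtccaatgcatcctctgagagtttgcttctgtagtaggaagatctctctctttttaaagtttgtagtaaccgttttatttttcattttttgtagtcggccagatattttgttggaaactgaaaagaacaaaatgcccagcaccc
Kif15, chr9:122950831-122951130, plus strand: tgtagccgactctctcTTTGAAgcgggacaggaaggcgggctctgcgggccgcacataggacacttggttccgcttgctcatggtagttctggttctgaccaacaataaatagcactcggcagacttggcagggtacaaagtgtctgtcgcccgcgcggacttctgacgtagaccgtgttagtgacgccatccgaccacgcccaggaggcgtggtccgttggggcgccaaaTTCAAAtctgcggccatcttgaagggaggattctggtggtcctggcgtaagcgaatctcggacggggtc
Kif23, chr9:61946750-61947049, minus strand: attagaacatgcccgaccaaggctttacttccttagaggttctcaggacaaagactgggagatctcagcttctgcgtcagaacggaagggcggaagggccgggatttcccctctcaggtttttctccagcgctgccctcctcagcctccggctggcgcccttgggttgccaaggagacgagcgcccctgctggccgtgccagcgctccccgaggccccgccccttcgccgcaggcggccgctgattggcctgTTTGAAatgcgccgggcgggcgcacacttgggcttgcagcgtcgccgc
Kif11, chr19:37376132-37376431, plus strand: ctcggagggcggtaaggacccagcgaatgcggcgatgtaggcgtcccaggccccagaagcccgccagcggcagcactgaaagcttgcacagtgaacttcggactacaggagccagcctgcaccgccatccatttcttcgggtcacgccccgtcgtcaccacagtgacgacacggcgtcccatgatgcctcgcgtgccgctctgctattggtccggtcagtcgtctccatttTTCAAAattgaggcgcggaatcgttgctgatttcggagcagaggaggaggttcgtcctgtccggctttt
In Kif11 and at the second match of Kif15 the letters began 19 bases before the start, and in Kif23 just after the start. The match of Kif14 began farther off, 228 bases before the start, and the first match of Kif15 234 bases before it. Over the members with a promoter, the 14 genes that hold the letters had a median ratio of -0.15 (range -2.10 to 1.43) and the 46 without them -0.01 (range -1.07 to 2.73), and the ranges overlapped.

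A half-site of the RFX factors, which act on genes of cilia, was searched as GTTGCC on either strand. It was present in 20 of the 66 promoters of members (30.3%) and in 12.5% of all promoters, and where it is followed by AAT its letters also hold a CCAAT box. The promoter of Dnaaf4, the member with the widest ratio, holds it shortly after the start, in capitals here.
Dnaaf4, chr9:72958535-72958834, plus strand: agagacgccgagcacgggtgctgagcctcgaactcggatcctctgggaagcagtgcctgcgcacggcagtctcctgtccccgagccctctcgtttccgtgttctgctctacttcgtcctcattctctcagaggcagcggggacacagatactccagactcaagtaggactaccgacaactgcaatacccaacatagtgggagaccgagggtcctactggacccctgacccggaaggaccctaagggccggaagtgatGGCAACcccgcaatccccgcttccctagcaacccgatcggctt
Dnaaf5, on the negative side, holds the half-site too, and the letters are not in the window of Dnah17, Dnah8 or Kif7. The 18 genes with the half-site had a median ratio of 0.01 and the 42 without it -0.03. The CCAAT box, CCAAT on either strand, was in 26 of the 66 promoters (39.4%) and in 37.4% of all. A match of so few letters is a description of the window and not a bound site.

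Kinesins of transport and of microtubule disassembly made up the remainder of the family. Kif2a, Kif2b and Kif2c, kinesin-13 motors that take microtubules apart, were positive on both arrays, with Kif2a at 0.53 ± 0.05, Kif2b at 0.60 ± 0.15 and Kif2c at 0.49 ± 0.22, and 0 of these 3 passed in limma, each having an unadjusted p under 0.05. Kif19a, which shortens microtubules at the tip of motile cilia, had 0.91 and 0.60 on arrays 1 and 2, and Kif21a, which restrains microtubule growth, 0.90 and 0.56. Kif24, which keeps centrioles from forming cilia, had -0.43 and -0.80, and Kif6 had -0.29 and -0.63. Kif5b, the widespread form of the conventional kinesin, had -0.38 and -0.23, and Kif1a, a neuronal carrier of synaptic vesicles, -0.12 and -0.39. Some values did not repeat between the arrays. Kif13b had 1.44 on array 1 and -0.26 on array 2, Kif5c 0.32 and -1.30, Kif1b 1.03 and 0.11, and Kif16b 0.11 and -0.48. Kif26a had 0.44 and -0.18, Kif9, a kinesin of motile cilia, 0.57 and 0.15, and Kif1c 0.18 and 0.0008. The 2 probes of Kif26b had means of -0.16 and -0.55, and the second had 0.16 on array 1 and -1.26 on array 2. Kif12 and Kif13a lay nearest to 0, at -0.04 ± 0.19 and -0.02 ± 0.27. Over the 33 kinesins, 16 had positive and 9 negative values on both arrays and 8 had mixed signs, with a median of 0.12.

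The light chains that couple conventional kinesin to cargo were divided. Klc4 had 0.73 and 0.69 on arrays 1 and 2, Klc3 -0.42 and -0.55, and Klc2 -0.12 and -1.07. Their limma adjusted p were 0.0768, 0.134 and 0.212. Kns2, a light chain under an older symbol that the rule does not take in, had 0.04 and -0.06. Kif21b, Kif27 and the dynein intermediate chain gene Dync1i1 had a value on array 2 only, at 0.31, -0.11 and -0.13, and Kif17 had none.

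**Figure D3:**
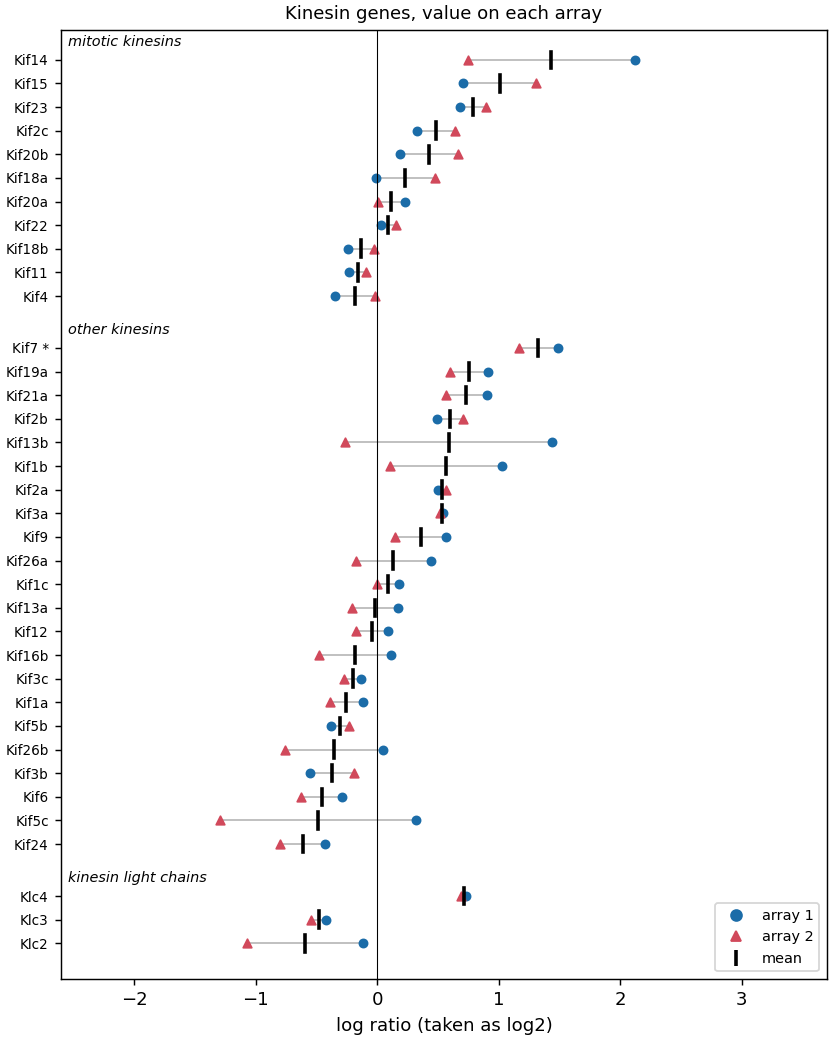
Log ratio, taken as log2, of each kinesin and kinesin light chain gene on array 1 (circles) and array 2 (triangles), with the mean as a bar and an asterisk for the gene past the limma threshold. Kif14, Kif15 and Kif23 lead the mitotic kinesins, of which Kif11 and Kif4 lie below 0, and Kif7 leads the others. Long lines, as for Kif13b and Kif5c, show genes whose arrays disagreed.

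Tubulin genes lay mostly on the negative side. Of 13 measured, 10 had negative and 3 positive values on both arrays and 0 had mixed signs, and the median was -0.43. By array, the median was -0.18 on array 1 but -0.42 on array 2. Tubb3, the beta tubulin of neurons that many tumours also make, had -0.94 and -1.19, a mean of -1.07 ± 0.18 (limma interval -1.48 to -0.66). Its limma adjusted p of 0.0475 lay just inside the threshold, and the call was kept in 1 of 8 alternatives. The widely used beta tubulins Tubb4b and Tubb5 had -0.59 and -0.82, and -0.28 and -1.09, with limma adjusted p of 0.0840 and 0.151. Tubb2b, expressed in the developing brain, had -0.76 and -0.42, Tubb6 -0.29 and -0.23, and Tubb4a -0.13 and -0.03. Tubb2a was the beta tubulin on the positive side, at 0.36 and 0.34, so 6 of the 7 beta tubulins were negative on both arrays.

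Alpha tubulins were split. Tuba1b, one of the main alpha tubulins of dividing cells, was read by 2 probes annotated as Tuba2. One had -0.33 and -0.31 on arrays 1 and 2 and the other -0.74 and -1.003, and their average was -0.60 ± 0.09 with a limma adjusted p of 0.101. Tuba4a had 0.64 and 0.32 and did not pass, and Tuba8 had -0.27 on array 2 only. Alpha and beta tubulin genes resemble each other closely, so a probe for 1 may also read another, and the probe sequences were not used here. Among the tubulins of the centrosome, Tubg1 and Tubg2, the gamma tubulins, had -0.16 and -0.70, and -0.18 and -0.83. Tubd1, delta tubulin, was positive at 0.33 and 0.66, and Tube1, epsilon tubulin, had -0.01 and -0.41. In limma 0 of these 4 passed (1 had an unadjusted p under 0.05).

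**Figure D4:**
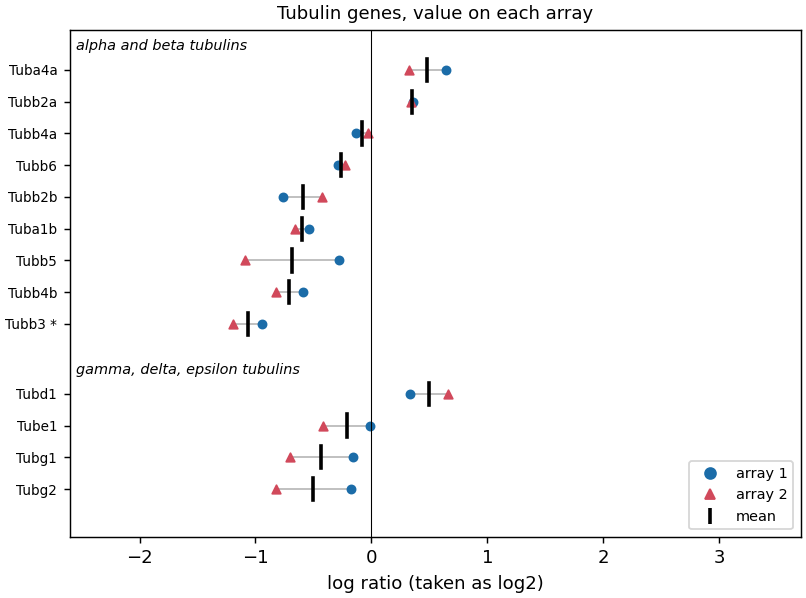
Log ratio, taken as log2, of each tubulin gene on array 1 (circles) and array 2 (triangles), with the mean as a bar and an asterisk for the gene past the limma threshold. Tuba4a, Tubb2a and Tubd1 lie on the positive side on both arrays and the 10 others on the negative side, with Tubb3 farthest out.

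Markers of neurons lay on both sides. Of 11 measured, 3 had positive and 3 negative values on both arrays and 5 had mixed signs. Map2, a microtubule-associated protein of dendrites, passed on the positive side at 1.19 ± 0.13 (limma adjusted p 0.0424), while Nefl, a neurofilament, had 0.63 ± 0.41, Gap43, a protein of growing axons, -0.59 ± 0.45, Ina -0.18 ± 0.10 and Uchl1 0.11 ± 0.11. The part of neurons in the ratio of Tubb3 was not tested.

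Taken as whole lists, the genes that fold, modify and seed tubulin showed no lean like that of the tubulin genes. Of 34 measured genes of tubulin folding and modification, 13 were positive and 15 negative on both arrays, with a median of -0.03, and 0 passed in limma (13 had an unadjusted p under 0.05). Tbce, a folding cofactor, had 0.80 ± 0.15, Agtpbp1, which trims glutamates from tubulin, 0.64 ± 0.08, Vbp1, a prefoldin subunit, 0.54 ± 0.07, and Ttl, which restores the terminal tyrosine, -0.49 ± 0.03. Among the chaperonin subunits of this list, Cct2, Cct3, Cct4 and Cct7 were negative on both arrays, Cct8 was positive and Cct5 mixed. Of 17 genes of the gamma-tubulin ring and its anchors, 8 were positive and 5 negative on both arrays. Cdk5rap2, which tethers the ring to the centrosome, passed at 1.22 ± 0.39 (limma adjusted p 0.0492). The ring subunits Tubgcp4 and Tubgcp6 had 0.79 ± 0.11 and -0.75 ± 0.04, in opposite directions, and Pcnt, pericentrin, had 0.49 ± 0.07. Of 32 microtubule-associated and plus-end proteins, 15 had positive and 10 negative values on both arrays and Map2 was the 1 called. Tacc2 had -0.73 ± 0.06, and Ckap2 and Ckap5, both of the spindle, 0.66 ± 0.17 and 0.84 ± 0.50.

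Cytoplasmic dynein genes lay nearest to 0 of the 6 families, with a median distance of 0.25, beside 0.27 over all genes. Of its 12 measured chains, 7 were negative and 3 positive on both arrays, the median was -0.14, and the means ran from -0.73 to 0.48. In limma 0 passed (2 had an unadjusted p under 0.05). Dync1h1, the heavy chain that holds the motor, had 0.16 and 0.23 on arrays 1 and 2. The light intermediate chains Dync1li1 and Dync1li2, which bind cargo adaptors, had -0.28 and -0.49, and -0.16 and -0.22, and the intermediate chain Dync1i2 had -0.42 and -0.14. Dynlt3, a light chain, was farthest from 0 at -0.58 and -0.89 (limma adjusted p 0.0841), and Dynll2 was on the other side at 0.50 and 0.45. Dynll1, its close relative, had 0.38 on array 1 and -0.33 on array 2, and Dynlt1 had -0.09 and -0.11. Dynlrb1 and Dynlrb2, the roadblock light chains, had -0.21 ± 0.06 and 0.32 ± 0.25. Among 22 genes of dynactin, dynein adaptors and other dynein light chains, 9 had positive and 8 negative values on both arrays, and 0 passed in limma (4 had an unadjusted p under 0.05). Dctn5 had 0.52 ± 0.10, Capzb, of the actin-capping end of dynactin, -0.68 ± 0.34, Hook1, an adaptor, 0.60 ± 0.23 and Dctn6 0.36 ± 0.02.

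Among other kinesins and adaptors, 4 of 11 had positive and 5 negative values on both arrays, and 0 passed in limma (4 had an unadjusted p under 0.05). Mapk8ip1, a kinesin cargo adaptor, had -0.60 ± 0.20, Rab6a -0.39 ± 0.02 and Trak1, which links kinesin to mitochondria, -0.43 ± 0.11. Dnaic1, an axonemal intermediate chain that the rule does not take in under this symbol, had -0.86 on array 1 and -0.07 on array 2, and Dnahc3, an older symbol of a heavy chain, had 0.01 and -0.03.

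**Figure D5:**
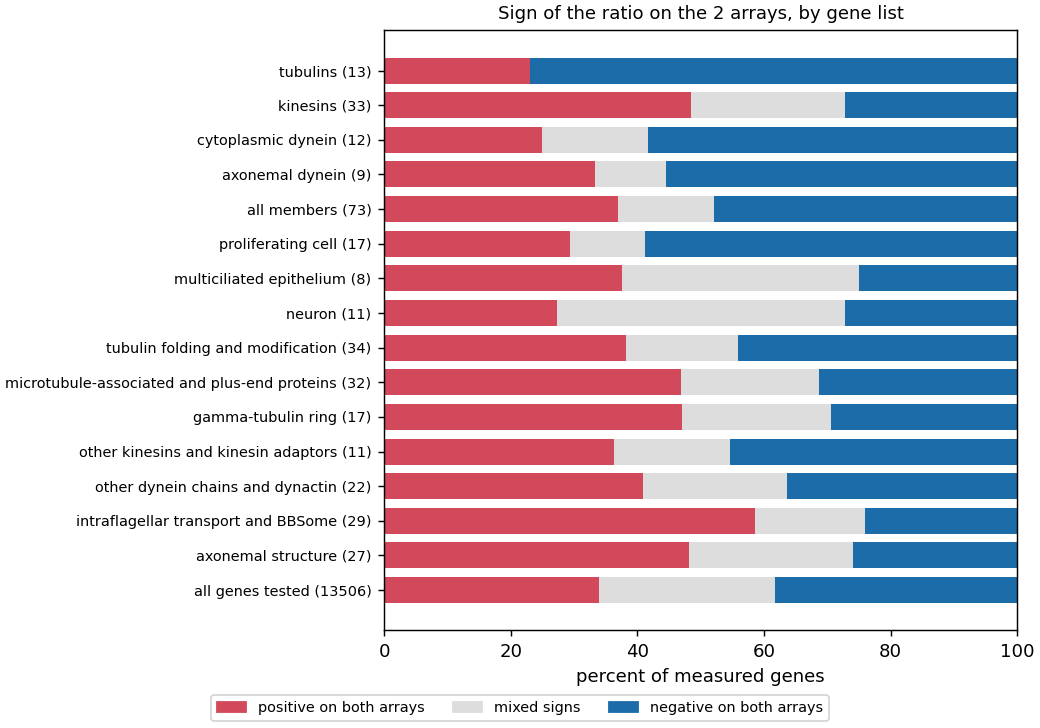
Share of measured genes that were positive on both arrays (red), of mixed sign (grey) or negative on both (blue), in percent, by family and by list, with the number of genes in brackets. Tubulins have 76.9% negative and 0 mixed, kinesins 48.5% positive, and all genes tested 33.9% positive and 38.2% negative.

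Markers of the tissues around the tumours gave the following counts. Of 11 measured hepatocyte genes, 2 had positive and 5 negative values on both arrays, with Ttr at 0.80 ± 0.06, Fah at -0.95 ± 0.50, Apoc3 at -0.51 ± 0.07 and Trf at 0.68 ± 0.44, and 0 passed in limma (5 had an unadjusted p under 0.05). Of 9 colonic epithelium genes 0 passed in limma (4 had an unadjusted p under 0.05), and 3 were positive and 4 negative on both arrays. Of 10 muscle genes 7 had positive and 2 negative values on both arrays, where all genes had 33.9% and 38.2%. Actn3 and Cnn1 passed on the positive side, which is 20% of the list, beside 2.90% of all genes. The 2 negative ones, Actg2 and Smtn, had -0.65 ± 0.01 and -0.55 ± 0.02 and did not pass. Of 5 platelet genes 0 passed in limma (1 had an unadjusted p under 0.05). The part of these cells in the ratios of the tubulins and motors was not tested.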

How the data were processed

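RNA of liver metastases (Cy3) and primary tumours (Cy5) was compared on 2 two-colour arrays, per the labels. The deposited values are 1 log ratio per probe and array, taken as log2. No source used here gives the log base, numerator, background correction, filter or normalization. Both arrays gave a value for 18837 of 23473 probes. Symbols came from the platform annotation and were updated through the GRCm38.p6 RefSeq gene table, and probes of a gene were averaged.

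Each of 13506 genes was fitted with limma 3.58.1 in R 4.3.3 (intercept, eBayes), with 1 residual and 4.06 prior degrees of freedom. The script was tested on simulated data. Alternatives were centring, scaling to equal spread, quantile normalization, a fit on probes, robust eBayes, no moderation, a minimum fold of 1.2, the probe nearest to 0 per gene, and each array alone. The nearest probe was chosen by its value on the array where it lay closer to 0. A filter on dim probes needs intensities, which were not at hand. The number of arrays limits the precision. Promoters were read from RefSeq tables of GRCm38.p6.

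The members and lists were chosen with earlier results of these data known. Named genes were all called members, those at least 1 log2 unit from 0 on both arrays, up to 4 per family and per list farthest from 0 on their weaker array, the 2 nearest to 0 per family, members with several probes or with a value on 1 array, and a few known markers (Tubb3, Tuba8, Kif1a, Kif11, Kif20a, Kif22, Kif23, Kif2c). Other names were picked with their values in view. Figures were drawn with matplotlib 3.10.9.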

Additional observations from a re-analysis of the deposited data

How the results depend on the processing

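Limma's calls lay near the threshold. The 3 positive member calls became 0 with quantile normalization, where 28 members had an unadjusted p under 0.05, and 0 without moderation, where 6 had. The 2 negative calls became 1 after scaling to equal spread, with robust eBayes, with a minimum fold of 1.2, with the probe nearest to 0 per gene and in the fit on probes, and 0 with quantile normalization and without moderation. Without moderation 1 residual degree of freedom remains. Dnaaf4, Dnah17 and Dnah8 kept their calls in 6 of 8 alternatives, Kif7 in 3 and Tubb3 in 1. Dnaaf4, Dnah17, Dnah8 and Tubb3 are read by 1 probe each, so the nearest probe and the fit on probes left their ratios unchanged. Robust eBayes, no moderation and the minimum fold also used the same ratios, so a call kept there is no separate check of the values. Over all genes limma called 391, and 358 after centring, 241 after scaling, 4 after quantile normalization, 267 with robust eBayes, 0 without moderation, 108 with the minimum fold and 256 with the nearest probe, and the fit on probes called 238 of 18837 probes. Without moderation 1450 genes had an unadjusted p under 0.05. The cause of the losses was not tested. On 1 array alone, where no test is possible, 8 to 10 members lay at least 1 log2 unit from 0, against 4 on both. For the assembly factors the median of -0.26 became -0.23 centred, -0.24 scaled and -0.27 quantile normalized, with -0.21 to -0.20 on single arrays. Single arrays gave -0.20 to -0.01 for axonemal dynein, -0.55 to -0.12 for the light chains and -0.42 to -0.18 for the tubulins. Means near 0 turned positive for Dnah1 (0.0155 centred, 0.0382 scaled, 0.0109 quantile), Dnah7a (0.0178 centred, 0.0173 scaled) and Kif13a (0.0057 centred, 0.0215 scaled). The 1 called gene of the neuron, multiciliated, microtubule-associated and axonemal lists became 0 with quantile normalization, without moderation and with the minimum fold, and so it did in the fit on probes for all but the axonemal list. The 1 call of the gamma-tubulin ring and the 1 of intraflagellar transport were 0 in all settings except scaling to equal spread. The 2 muscle calls became 1 after scaling and with the nearest probe, and 0 with quantile normalization, without moderation, with the minimum fold and in the fit on probes. Each ratio already sets the 2 tissues of 1 array against each other, so the test against 0 compared them within pairs. No other paired analysis was run, and the arrays form 1 group.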
